A study of Mus musculus with 7 samples.

Results

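Allelic expression of autosomal genes was compared between 2 lines of female mouse embryonic stem cells, using the Cast share, which is the percentage of a gene's allelic fragments that carry Cast polymorphisms. The genes were chosen by position and depth. They lie on the 13 autosomes other than 1, 5, 8, 11, 12 and 14, and had at least 50 allelic fragments in every library. Of the 22556 genes counted, 9197 had that depth on any chromosome and 5744 of these were selected on the 13 autosomes. The depth limit reads the same allelic counts as the comparison, but only their sum and not their split between the alleles. The chromosomes were chosen with earlier results of these data known, and whether that choice was independent of the split was not tested. The 141 genes whose poorest library held 50 to 54 allelic fragments had a median absolute difference between the lines of 2.79 percentage points, and the 132 genes at 45 to 49 fragments, just outside, 3.02 points.

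Both lines derive from an F1 hybrid of 129/Sv, a domesticus strain called Dom here, and CAST/EiJ, called Cast. In iXist-ChrX-Dom (4 libraries, clone B2) a TetOn promoter replaces the Xist promoter on the Dom X chromosome, and in iXist-ChrX-Cast (3 libraries, clone C7) on the Cast X chromosome. All cells were undifferentiated, had been grown on mouse fibroblast feeders and had received doxycycline at 1 µg/mL for 10 days by title and treatment. No untreated library was compared, so no effect of induction was measured. The labels give 1 clone per line, so line, clone and culture history cannot be told apart. The study calls the libraries replicate experiments, but as no source used here says that they were separate cultures, the p-values measure only the spread between these libraries. For replicates 3 and 4 of iXist-ChrX-Dom the description field reads d1, against 10 days in title and treatment, and the latter was followed. Another clone name than the labelled one stands in the deposited names of replicates 1 and 2 of iXist-ChrX-Cast, so whether its 3 libraries are of the same clone was not settled. Replicates 1 and 2 of both lines also follow another file naming scheme than replicates 3 and 4.

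An autosomal gene is usually transcribed from both parental copies, and in an F1 hybrid the share of each copy reflects sequence differences between the strains. Imprinted genes depart from this because marks laid down in the germ line silence the copy of 1 parent. Other genes show clonal monoallelic expression, in which a cell picks a copy at random and its descendants keep that choice. Chromatin-associated RNA (ChrRNA-seq) is rich in nascent, unspliced transcripts, so the share mainly reads ongoing transcription, introns included.

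The 4 genes below were among those with differences of at least 17.1 points between the lines. Ppp4r1l-ps, at 18.0 points, also passed that limit and is not shown. For each of the 4 the promoter sequence before an annotated start site is given. Which start site each copy used was not tested. Each line gives the 250 bases before the RefSeq start site (GRCm38.p6), 5′ to 3′ on the gene's strand, with CpG dinucleotides, the sites of DNA methylation, in capitals. The sequence is that of the reference strain, so it marks neither the Dom nor the Cast allele.
Mllt3, chr4:88033408-88033657, minus strand: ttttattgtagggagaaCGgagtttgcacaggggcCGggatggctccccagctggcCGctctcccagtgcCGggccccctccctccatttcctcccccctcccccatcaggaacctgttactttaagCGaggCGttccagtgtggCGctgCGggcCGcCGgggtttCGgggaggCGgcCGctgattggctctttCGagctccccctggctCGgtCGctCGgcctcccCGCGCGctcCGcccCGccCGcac
Prkaa2, chr4:105109899-105110148, minus strand: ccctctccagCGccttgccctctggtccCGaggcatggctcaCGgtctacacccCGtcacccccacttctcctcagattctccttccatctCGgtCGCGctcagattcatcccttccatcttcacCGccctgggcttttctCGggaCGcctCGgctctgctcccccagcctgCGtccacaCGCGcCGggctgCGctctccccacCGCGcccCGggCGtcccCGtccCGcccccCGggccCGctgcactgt
Ifnar1, chr16:91484965-91485214, plus strand: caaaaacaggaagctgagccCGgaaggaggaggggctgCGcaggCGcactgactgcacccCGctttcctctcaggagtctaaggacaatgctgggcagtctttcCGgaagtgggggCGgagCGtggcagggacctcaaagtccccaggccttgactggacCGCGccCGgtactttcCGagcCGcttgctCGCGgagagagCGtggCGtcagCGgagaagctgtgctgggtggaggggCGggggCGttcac
Aass, chr6:23132987-23133236, minus strand: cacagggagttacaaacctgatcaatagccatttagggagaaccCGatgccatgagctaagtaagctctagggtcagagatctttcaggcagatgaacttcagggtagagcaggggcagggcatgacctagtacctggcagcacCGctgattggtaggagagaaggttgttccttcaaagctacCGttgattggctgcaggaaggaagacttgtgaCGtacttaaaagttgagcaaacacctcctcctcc
These windows hold 23, 24, 19 and 4 CpG dinucleotides. Among all 32851 mouse promoters of the same table, 37.8% hold 10 or more in the same window. Among the 4179 selected genes that matched a promoter 81.1% do, but 1565 did not match, so the comparison over the selected genes is void.

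The libraries held 14877384 to 24309806 counted fragments, of which 44.2% to 46.4% were allelic, and a selected gene had 293 to 518 allelic fragments (median per library). At 50 allelic fragments a share of 50% has a 95% Wilson interval of 36.6% to 63.4%, and at 400 fragments one of 45.1% to 54.9%. Intervals cover counting error only. Xist, which checks the labels, was 99.9% Dom in the 4 iXist-ChrX-Dom libraries and 5.271% to 6.003% Dom in the 3 iXist-ChrX-Cast libraries. The 10 embryonic stem cell markers summed to 2439 to 3003 FPM in iXist-ChrX-Dom and 2671 to 3061 in iXist-ChrX-Cast, FPM being fragments scaled to 1000000 fragments counted on the 13 autosomes. Of these, 9 had at least 10 fragments in every library and Sox2, whose span lies inside Sox2ot on the same strand, was at 0. The 14 feeder fibroblast markers summed to 175 to 231 in iXist-ChrX-Dom and 155 to 185 in iXist-ChrX-Cast, and 12 of them had at least 10 fragments in every library. The 7 neural markers summed to 143 to 210.5 and 119 to 161, and the 10 primitive endoderm markers to 764 to 1229 and 790 to 1172. At least 10 fragments in every library were reached by 4 of the neural markers, with Sox1 at 0, and by 8 of the primitive endoderm markers.

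Over the 5744 selected genes the 2 lines had nearly the same balance. The selection left out chromosomes 5 and 8, which held 1169 genes with the same depth. As the chromosomes were chosen with earlier results known, this closeness does not test balance across all autosomes. The median Cast share over the 5744 genes was 46.9%, 46.9%, 47.2% and 46.8% in the 4 iXist-ChrX-Dom libraries and 46.6%, 46.5% and 47.1% in the 3 iXist-ChrX-Cast libraries. The line means were 47.0% ± 0.152 (SD, n = 4) and 46.7% ± 0.305 (SD, n = 3), and the libraries of the lines overlapped. The difference of 0.203 points gave p = 0.229 in a two-sided exact permutation test over 35 splits, the smallest possible p being 0.0286. Single genes also kept their share from line to line. Spearman's correlation coefficient across the 5744 genes was 0.779 to 0.825 between libraries of 1 line and 0.762 to 0.815 between libraries of different lines, a description over genes that share depth and polymorphisms. The median absolute difference of a gene between the lines was 1.59 points, and 5% of genes exceeded 6.51 points.

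A smaller set of genes was called as different between the lines. Across all 9197 genes with sufficient depth, edgeR's quasi-likelihood test with Benjamini-Hochberg adjustment called 1979 genes (21.5%), of which 1415 lie on chromosomes 5, 8 and X. The rule leaves these chromosomes out, and on them 1415 of 1466 genes tested were called. A lower percentage among the selected genes was thus largely set by the choice of chromosomes. Among the 5744 selected genes the test called 188 (3.27%). The Cast share was higher in iXist-ChrX-Dom for 90 of them (1.57%, against 11.3% of all genes tested) and lower for 98 (1.71%, against 10.2%). In this fit the largest raw p among the 188 was 0.0108. The adjustment ran over all 9197 genes, with most calls on chromosomes 5, 8 and X. An adjusted p under 0.05 therefore does not hold false calls among the selected genes to that rate. Fitted on the 13 autosomes alone, the same test called 37 genes (0.644%), 15 higher and 22 lower, all 37 among the 188. These 37 genes are the stricter set and are given first below. Adjusted p-values given below for Cast shares are those of the fit of all chromosomes. By unadjusted p under 0.05, 503 of the 5744 genes (8.76%) differed. The shares of the lines did not overlap for 545 of the 5744 (9.49%) and for 26.6% of all genes tested.

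**Figure D1:**
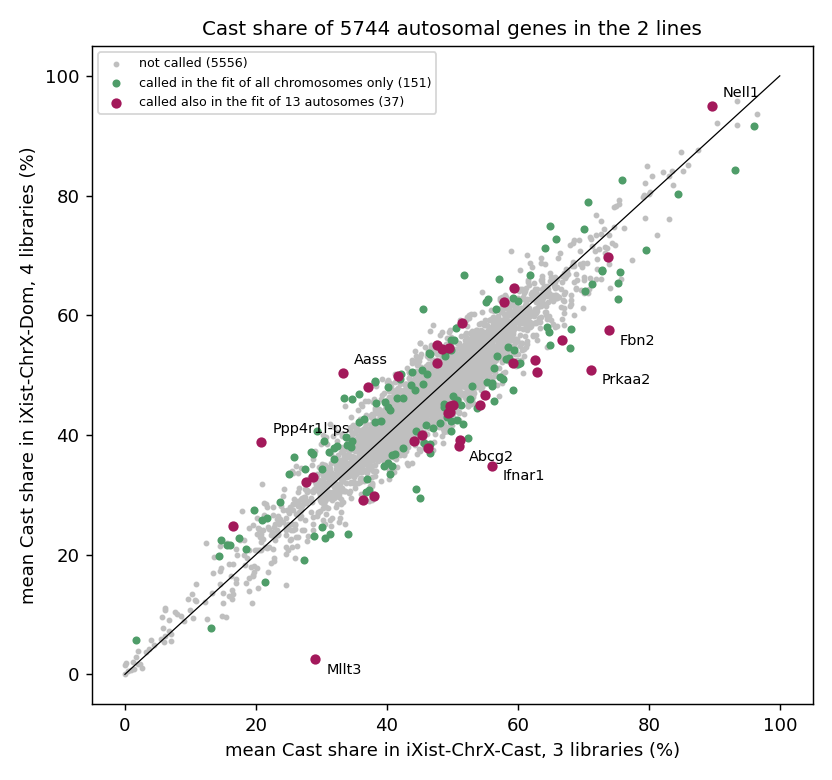
Mean Cast share of each of the 5744 genes in iXist-ChrX-Cast (x axis, %, 3 libraries) against iXist-ChrX-Dom (y axis, %, 4 libraries), with the line of equal shares. Most genes lie close to the line, 188 are called in the fit of all chromosomes, 37 of these also in the fit of 13 autosomes, and Mllt3 stands lowest against its share in iXist-ChrX-Cast.

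The count of 188 depended on the test and on single libraries. DESeq2 called 54 genes, all among the 188. Without iXist-ChrX-Cast replicate 1 the count was 95, and without iXist-ChrX-Cast replicate 2 it was 112. With the sample set (replicates 1 and 2 or 3 and 4) as a covariate the count was 270, of which 187 were among the 188, and within replicates 1 and 2 alone it was 246, of which 114 were. With DESeq2 size factors 57 were higher and 145 lower in place of 90 and 98. That scaling moved the median log2 odds ratio of the genes by -0.03, and the cause of the changed split was not tested. Most differences were small. Of the 188, 32 reached 10 points, 3 reached 20 points, and the median absolute difference was 6.34 points.

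Mllt3, whose protein AF9 reads acylated histones and recruits the elongation machinery (chr4:87769924-88033407, mm10, minus strand), had the largest difference. Its Cast share was 3.96%, 2.17%, 1.78% and 2.22% in the 4 iXist-ChrX-Dom libraries, against 31.5%, 24.9% and 30.8% in the 3 iXist-ChrX-Cast libraries, from 495 to 928 allelic fragments per library. The Cast copy was thus rare in every iXist-ChrX-Dom library and was the minor copy in the other line, with no overlap. The log2 odds ratio, the log2 of the Cast to Dom ratio in iXist-ChrX-Dom over that in iXist-ChrX-Cast, was -4.00 ± 0.19 (SE, edgeR adjusted p = 2.47e-12). The Cast allele was at 1.42 ± 0.402 FPM (SD, n = 4) in iXist-ChrX-Dom and 18.1 ± 6.38 (SD, n = 3) in iXist-ChrX-Cast, while the Dom allele was at 56.2 ± 8.83 and 43.3 ± 10.5. Its nearest selected neighbours, Acer2 and Focad, differed by -2.23 and -1.46 points and were not called. The stretch of chromosome 4 from 84 to 90 Mb and the genes named on it by their position were chosen after their values were seen. On it 4 of 13 genes were called, all lower in iXist-ChrX-Dom, beside 3.27% of all selected genes. Besides Mllt3 these were Cntln at -12.1 points, Dennd4c at -8.42 and Adamtsl1 at -6.12, the last not in the fit of the 13 autosomes, and between them Sh3gl2, Haus6 and Rps6 were at 0.153, 1.21 and 0.0739 points and were not called.

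Prkaa2, the α2 catalytic subunit of AMP-activated protein kinase (chr4:105029649-105109898, minus strand), had shares of 53.0%, 49.6%, 50.6% and 50.2% in iXist-ChrX-Dom and 72.1%, 73.7% and 67.6% in iXist-ChrX-Cast. The first line was balanced and the second was Cast-biased in every library (log2 odds ratio -1.25 ± 0.12 SE, edgeR adjusted p = 7.31e-08). Here the Dom allele differed most, at 30.6 ± 2.77 FPM against 10.4 ± 1.06, with the Cast allele at 31.7 ± 3.71 against 25.6 ± 1.75. Ifnar1, a subunit of the type I interferon receptor (chr16:91485214-91510522, plus strand), had shares of 36.2%, 32.9%, 38.2% and 32.3% in iXist-ChrX-Dom and 48.7%, 66.3% and 53.1% in iXist-ChrX-Cast. Its groups did not overlap, though the 3 iXist-ChrX-Cast libraries spread widely (log2 odds ratio -1.27 ± 0.19 SE, edgeR adjusted p = 2.47e-05). Its Dom allele was at 22.6 ± 3.21 against 10.5 ± 3.02 FPM, and its Cast allele at 12.1 ± 1.88 against 13.2 ± 2.37.

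Fbn2, the extracellular matrix protein fibrillin 2, had shares of 53.2%, 52.9%, 62.8% and 61.0% in iXist-ChrX-Dom and 70.7%, 76.3% and 74.8% in iXist-ChrX-Cast. Within iXist-ChrX-Dom, replicates 1 and 2 were lower than replicates 3 and 4, and all 4 were below the other line (log2 odds ratio -1.17 ± 0.16 SE, edgeR adjusted p = 1.23e-05). Its Cast allele was at 11.1 ± 4.71 against 30.2 ± 13.6 FPM. Brinp1, expressed mainly in the nervous system, had shares of 49%, 44.7%, 55.4% and 52.8% in iXist-ChrX-Dom and 63.8%, 62.4% and 62.4% in iXist-ChrX-Cast. No library of the first line reached 60% and all of the second exceeded it (log2 odds ratio -0.77 ± 0.18 SE, edgeR adjusted p = 0.00298).

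Among the genes with a higher Cast share in iXist-ChrX-Dom, the largest difference was at Ppp4r1l-ps, a transcribed pseudogene (chr2:173579319-173659539, minus strand) whose reads may be shared with related sequence. Its shares were 40.7%, 39.4%, 37.2% and 38.1% in iXist-ChrX-Dom and 20.5%, 21.8% and 20.2% in iXist-ChrX-Cast. Both groups were tight and both were Dom-biased (log2 odds ratio 1.27 ± 0.14 SE, edgeR adjusted p = 6.61e-07). Aass, which opens lysine degradation (chr6:23072172-23132986, minus strand), had shares of 52.2%, 50.4%, 51.9% and 47.0% in iXist-ChrX-Dom and 36.7%, 33.3% and 29.7% in iXist-ChrX-Cast. It was balanced in the first line and Dom-biased in the second (log2 odds ratio 1.05 ± 0.17 SE, edgeR adjusted p = 5.75e-05). The Dom allele of Aass was at 7.16 ± 0.533 against 13.2 ± 2.12 FPM, and its Cast allele at 7.26 ± 0.482 against 6.48 ± 0.172. Arhgef28, a guanine nucleotide exchange factor, had shares of 53.8%, 40.0%, 49.4% and 48.9% against 34.6%, 38.3% and 38.5%. The lowest iXist-ChrX-Dom library, replicate 2, stood close above the highest of the other line (log2 odds ratio 0.63 ± 0.15 SE, edgeR adjusted p = 0.00371).

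**Figure D2:**
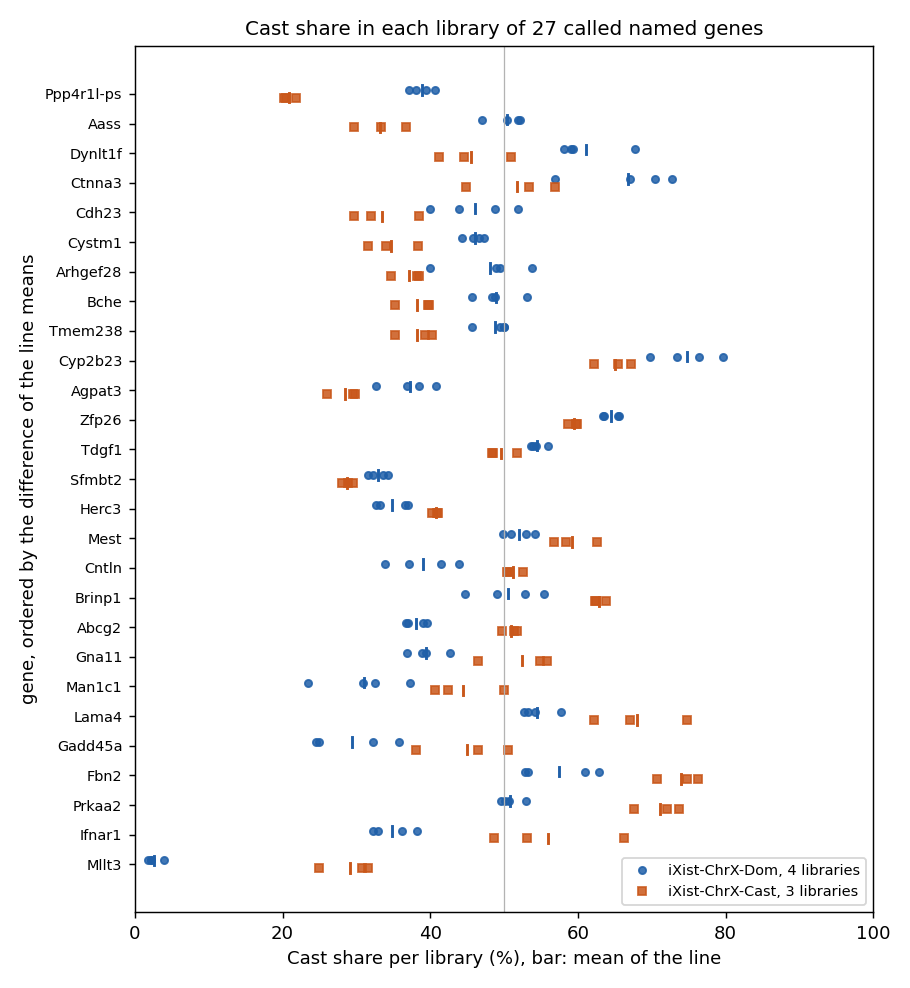
Cast share (x axis, %) of 27 of the 29 called genes named by rule (y axis), with circles for the 4 iXist-ChrX-Dom libraries, squares for the 3 iXist-ChrX-Cast libraries and a bar for each line mean. Mllt3 lies at 1.78% to 3.96% in iXist-ChrX-Dom and 24.9% to 31.5% in iXist-ChrX-Cast. The groups of all 27 genes plotted are apart, which the naming rule required of the largest rises and falls. Among all 5744 selected genes 9.49% are apart.

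The allele that differed was not the same from gene to gene. Among the 28 called genes with at least 10 points and no overlap, the larger log2 change was that of the Cast allele for 18 and that of the Dom allele for 10, and the alleles moved in opposite directions for 16. The mean log2 change from iXist-ChrX-Cast to iXist-ChrX-Dom was -3.61 for the Cast allele of Mllt3 and 0.39 for its Dom allele. For Prkaa2 it was 0.30 and 1.55, for Ifnar1 -0.12 and 1.13, for Ppp4r1l-ps 1.46 and 0.20, and for Aass 0.16 and -0.87. These values describe genes chosen by their shares and were not tested.

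**Figure D3:**
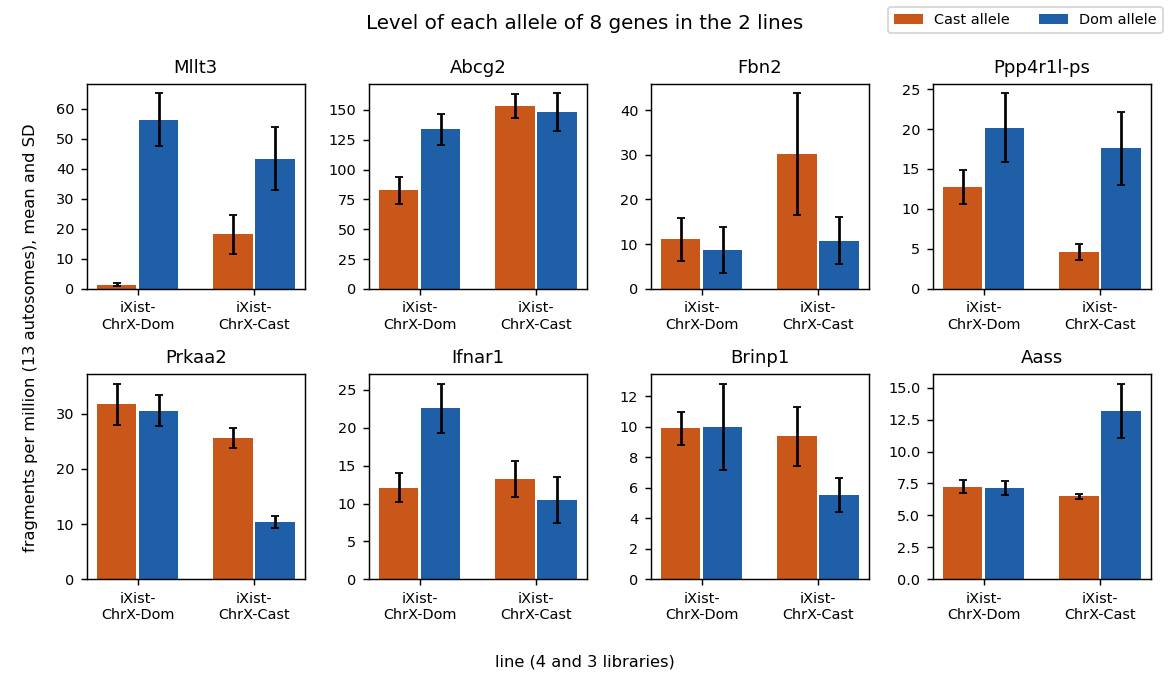
Level in FPM (y axis of each panel, starting at 0), assigned to the Cast and Dom alleles of 8 genes in the 2 lines (x axis), as the mean with SD over 4 iXist-ChrX-Dom and 3 iXist-ChrX-Cast libraries. The Cast allele of Mllt3 is at 1.42 against 18.1, and the Dom allele of Prkaa2 at 30.6 against 10.4.

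Further genes of the 37, whose lines did not overlap either, are given as line means. The genes in this paragraph were picked after their values were seen. Asns, asparagine synthetase, had a share of 58.7% ± 0.984 (SD, n = 4) in iXist-ChrX-Dom and 51.4% ± 0.471 (SD, n = 3) in iXist-ChrX-Cast (edgeR adjusted p = 7.57e-06). Aoah, which deacylates bacterial lipopolysaccharide, was at 29.8% ± 1.07 and 38.1% ± 1.57 (edgeR adjusted p = 6.67e-06). Robo1, a receptor of Slit guidance proteins, was at 37.8% ± 2.28 and 46.3% ± 2.38 (edgeR adjusted p = 3.15e-05). Hmga2, an architectural chromatin protein, was at 55.9% ± 3.17 and 66.7% ± 3.37 (edgeR adjusted p = 3.16e-05). Ryr2, an intracellular calcium release channel, was at 55.1% ± 3.30 and 47.6% ± 1.10.

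The other genes named by rule and given here were called in the fit of all chromosomes but not in that of the 13 autosomes. Higher in iXist-ChrX-Dom were Dynlt1f (15.5 points), Ctnna3 (15.1), Cdh23 (12.7), Cystm1 (11.4), Bche (10.7), Tmem238 (10.5), Cyp2b23 (9.88) and Agpat3 (8.79). Lower were Gadd45a (-15.6 points), which lies in the block of chromosome 6 described below, Lama4 (-13.5), Man1c1 (-13.4) and Gna11 (-12.9). Several of these calls were fragile. Under 13 alternatives the call was lost in 10 for Tmem238, in 7 each for Agpat3 and Cdh23, in 6 for Gadd45a, in 5 for Man1c1 and in 4 for Gna11. Dynlt1f and Cyp2b23 belong to families of near-identical genes, and unique alignment may split their reads unevenly. For Ctnna3 the groups nearly met, with 56.94% in iXist-ChrX-Dom replicate 2 and 56.90% in iXist-ChrX-Cast replicate 2, from 88 to 176 allelic fragments. Lama4 encodes a laminin chain of mesenchymal basement membranes. For iXist-ChrX-Dom against iXist-ChrX-Cast, its Cast allele was at 4.61 ± 0.306 against 8.11 ± 2.44 FPM (SD). Its Dom allele was at 3.85 ± 0.255 against 3.77 ± 1.15. Of the 14 feeder markers only Col1a2, Col5a1 and Fbn1 were among the selected genes. The mean shares of these 3 lay between 8.93% and 40.1% and none was called. The feeder marker sums given above reached higher values in iXist-ChrX-Dom, with overlapping ranges. The part of feeder reads in the lower shares, that of Lama4 included, was not tested. Feeders had been depleted by pre-plating before the cells were plated for harvest.

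No gene was monoallelic in 1 line and biallelic in the other by the limits used, at most 10% or at least 90% in every library of a line and 25% to 75% in every library of the other. Mllt3 missed them by iXist-ChrX-Cast replicate 2 alone, at 24.9% with a 95% Wilson interval of 21.5% to 28.6%, and it was the 1 gene to meet them without that library. In all 7 libraries 23 genes were at 10% or below and 1 gene, Ndst4, at 90% or above. Those at the low end included Tm4sf1 (mean shares of 0.502% in the first line and 0.412% in the second), Tnc (2.97% and 1.66%) and Cd44 (4.31% and 3.66%), and none of the 24 was on the list of imprinted genes. For X-linked genes the study left out such extreme ratios in uninduced cells, as likely artifacts of single misannotated polymorphisms. The part of such artifacts and of feeder reads in these shares was not tested. Nell1, also picked after its values were seen, a secreted protein of bone formation, was strongly Cast in both lines but differed in degree. Its shares were 95.8%, 93.7%, 94.8% and 95.5% in iXist-ChrX-Dom and 87.5%, 90.4% and 91.2% in iXist-ChrX-Cast (log2 odds ratio 1.11 ± 0.16 SE, edgeR adjusted p = 2.45e-05). The iXist-ChrX-Dom libraries all lay above the others, so the minor Dom copy was the rarer in that line.

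Of the 65 imprinted genes listed, 31 were deep enough, and 3 of them were called, 1 higher and 2 lower in iXist-ChrX-Dom (3.27% of all selected genes being called), 2 of them also in the fit of the 13 autosomes (0.644%), with a median difference over the 31 of 0.138 points against 0.0939 over all 5744. Sfmbt2, a Polycomb group protein, had shares of 34.3%, 31.6%, 33.6% and 32.2% in iXist-ChrX-Dom and 29.5%, 28.0% and 28.9% in iXist-ChrX-Cast. The groups did not overlap, and both lines were Dom-biased (log2 odds ratio 0.28 ± 0.06 SE, edgeR adjusted p = 0.00166). Mest, a paternally expressed gene, had shares of 51.0%, 49.9%, 54.1% and 53.0% against 56.8%, 62.6% and 58.4%. It was near balance in the first line and moderately Cast-biased in the second (log2 odds ratio -0.46 ± 0.11 SE, edgeR adjusted p = 0.00295). Herc3 lies in the stretch of chromosome 6 described next, at 34.9% ± 2.21 and 40.8% ± 0.427.

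Most of the imprinted genes that did not pass the test were close to balance in both lines. The examples here and in the list of extreme shares were picked after their values were seen. H19 was at 43.9% ± 4.12 and 45.02% ± 1.04, Kcnq1ot1 at 45.9% ± 0.583 and 45.8% ± 0.908, Peg10 at 59.1% ± 1.34 and 58.9% ± 1.41, Impact at 54.4% ± 0.786 and 53.98% ± 0.834, and Igf2r at 39.0% ± 1.01 and 39.4% ± 2.34. Peg3 was at 61.3% ± 1.43 and 63.1% ± 2.08. Snrpn, expressed from the paternal copy, had the lowest share of the 31, at 10.0% ± 2.41 and 7.97% ± 1.84, so the Dom copy prevailed in both lines. Usp29, next to Peg3, had the widest gap among those that were not called, at 54.7% ± 2.93 and 64.4% ± 8.06 (edgeR adjusted p = 0.0759).

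The other gene groups held 0 or 1 call each, beside 3.27% of all selected genes. Of 192 zinc finger genes named Zfp, 1 was called. This was Zfp26, with shares of 65.6%, 65.5%, 63.4% and 63.6% in iXist-ChrX-Dom and 59.9%, 58.7% and 59.7% in iXist-ChrX-Cast (edgeR adjusted p = 0.00184). Of 11 pluripotency genes, 1 was called, Tdgf1, the Nodal co-receptor Cripto. Its shares were 56.0%, 53.9%, 53.6% and 54.4% against 51.8%, 48.5% and 48.4% (edgeR adjusted p = 0.00219). For both genes the groups did not overlap. None of 51 ribosomal protein genes was called, with Rpl35 at 49.1% ± 2.91 against 44.0% ± 1.31 and Rps26 at 46.8% ± 1.42 against 51.6% ± 0.343. The 2 histocompatibility genes were not called, H2-K1 being at 3.85% ± 2.05 and 2.02% ± 0.993 and H2-DMa at 52.8% ± 4.15 and 50.2% ± 0.979. The clustered protocadherins, a family known for random choice among promoters in neurons, left 1 deep enough entry, Pcdha4-g, which was not called at 87.3% ± 1.74 and 84.9% ± 0.667.

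The calls were unevenly spread along the genome. Chromosome 6 held 43 of the 188, 7 higher and 36 lower in iXist-ChrX-Dom (9.73% of its 442 genes), whereas the other 12 autosomes held between 1.29% and 5.15%. Within chromosome 6 the calls gathered in a block from 45 to 80 Mb. This block was chosen after its shares were seen, and its values are a description with no test. Of 290 windows of 5 Mb with at least 6 selected genes on the 13 autosomes, 5 had line means that differed by 3 points or more in the median deviation of their genes, and all 5 lay in this block. In the other 285 windows the difference stayed within 2.42 points.

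In the block the Cast share was lower in iXist-ChrX-Dom, and more so in 2 of its 4 libraries. The median over its 85 genes was 44.2%, 44.9%, 39.7% and 39.7% in the iXist-ChrX-Dom libraries, against 46.7%, 46.8% and 46.7% in the iXist-ChrX-Cast libraries. Replicates 3 and 4 lay below replicates 1 and 2 of their own line, and all 4 lay below the other line. Over the other 357 genes of the chromosome the medians were 47.5%, 46.9%, 47.6% and 47.3% against 46.5%, 46.5% and 46.9%. The mean share was lower in iXist-ChrX-Dom for 80 of the 85 genes, and 25 were called, all lower. Replicates 3 and 4 were below replicates 1 and 2 for 77 of the 85 genes of the block and for 166 of the other 357. At its edges Cntnap2 differed by -1.64 points and Cul1, the scaffold of SCF ubiquitin ligases, by -5.36. On the far side Kcmf1 differed by -5.26, Suclg1 by 0.446, Ctnna2 by -7.16 and Gcfc2 by 0.209 points.

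**Figure D4:**
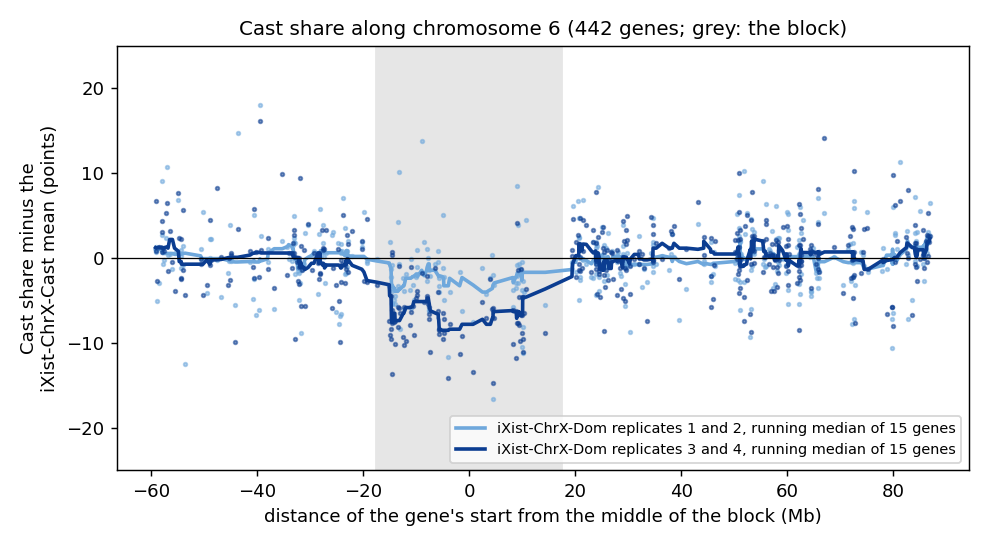
Cast share of the 442 genes of chromosome 6 minus their mean in iXist-ChrX-Cast (y axis, percentage points) against the distance of each gene's start from the middle of the block (x axis, Mb), with running medians of 15 genes for iXist-ChrX-Dom replicates 1 and 2 and replicates 3 and 4. Both medians run near 0 outside the grey block and below 0 within it, where replicates 3 and 4 are the lower.

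The genes of the block include Ezh2 and Hnrnpa2b1, like the edge genes named after their values were seen, and Abcg2, named by rule. Ezh2 is the Polycomb H3K27 methyltransferase, and its shares were 55.7%, 55.04%, 46.0% and 42.8% against 53.8%, 55.05% and 51.4%. Ezh2 was balanced like the other line in replicates 1 and 2 and lower in replicates 3 and 4, and it was not called (edgeR adjusted p = 0.425). Hnrnpa2b1, an RNA-binding protein, was at 46.4%, 45.5%, 42.3% and 41.2% against 49.05%, 49.4% and 50.5% and was called (edgeR adjusted p = 7.96e-04). Abcg2, a drug efflux transporter and stem cell marker (chr6:58596671-58692451, plus strand), differed in all 4 libraries. Its shares were 39.5%, 39.0%, 37.1% and 36.7% against 49.7%, 51.8% and 51.4%, without overlap and from 2070 to 3431 allelic fragments (log2 odds ratio -0.75 ± 0.06 SE, edgeR adjusted p = 1.31e-08).

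The median log2 level of the 85 genes, relative to their iXist-ChrX-Cast mean, was -0.12, -0.04, -0.41 and -0.44 for Cast fragments in the iXist-ChrX-Dom libraries, and 0.07, 0.15, 0.02 and -0.02 for Dom fragments. In replicates 3 and 4 the Cast allele was thus the lower, with the Dom allele near the level of the other line. In replicates 1 and 2 the departures were smaller, with the Cast allele below and the Dom allele above that level. Unassigned fragments, which cover no informative polymorphism and played no part in the choice of the block, were at -0.01, 0.02, -0.22 and -0.23. Over the other 357 genes of the chromosome unassigned fragments were at 0.03, -0.00, -0.00 and 0.01. Replicates 3 and 4 are the libraries whose descriptions read d1 and that follow the other naming scheme, so induction time, naming scheme and block cannot be told apart within this line. Within replicates 1 and 2 alone the difference of the block between the lines was -2.24 points, and within replicates 3 and 4 it was -6.99. In a fit of replicates 1 and 2 alone 10 of the 85 genes were called, without iXist-ChrX-Dom replicate 3 there were 14 and without replicate 4 there were 17. Outside the block 163 of 5659 genes (2.88%) were called, 90 higher and 73 lower, and in the fit of the 13 autosomes 31.

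**Figure D5:**
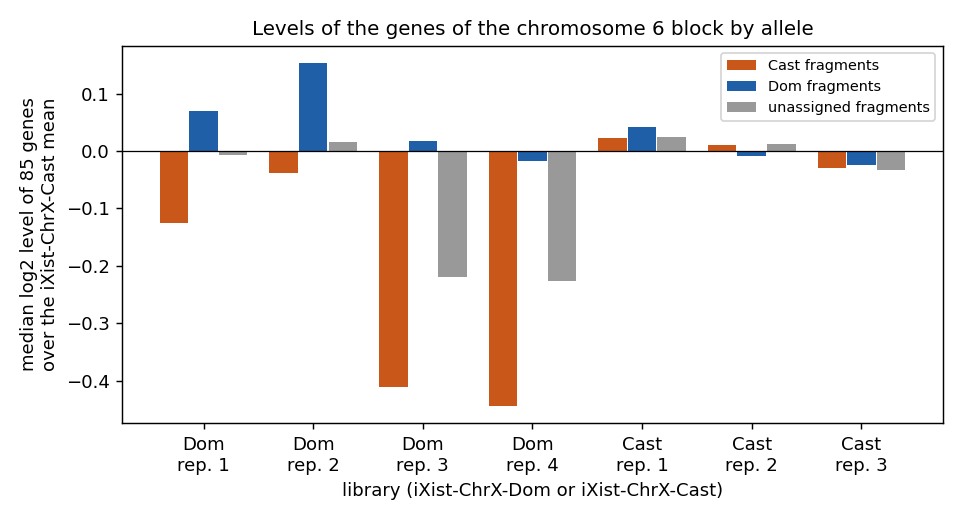
Median log2 level of the 85 genes of the block relative to their mean in iXist-ChrX-Cast (y axis) in each library (x axis), for Cast, Dom and unassigned fragments. Cast fragments are at -0.41 and -0.44 in iXist-ChrX-Dom replicates 3 and 4, where Dom fragments are at 0.02 and -0.02.

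Chromosome 19 showed a smaller departure in 1 library of the other line. Its median share was 47.2%, 47.0%, 47.8% and 46.6% in iXist-ChrX-Dom and 46.5%, 46.1% and 45.01% in iXist-ChrX-Cast, replicate 3 being the lowest. Its 8 called genes, 2.86% of 280 against 3.27% of all selected genes, were all higher in iXist-ChrX-Dom, and 0 were called in the fit of the 13 autosomes. On the other 11 autosomes besides 6 and 19 the line means of the median differed by at most 0.642 points.

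Output was compared with the shares in the unassigned fragments, a part of the total. These are separate fragments of the same genes but come from the same 7 libraries, so they are no independent replication. In bulk samples fewer cells of a type and less RNA per cell cannot be told apart. In this test 262 of 13901 genes (1.88%) were called between the lines, among them 36 of 5743 selected genes (0.627%) and 5 of the 188 with a different share (2.66%). Prkaa2 and Nr6a1, an orphan nuclear receptor, were higher in iXist-ChrX-Dom, at log2 fold changes of 0.66 ± 0.14 and 0.51 ± 0.11 (SE, edgeR adjusted p = 0.0448 and 0.0458). Tdgf1, Necab1, a neuronal calcium-binding protein, and Dpp4, a cell surface peptidase, were lower, at -0.53 ± 0.10, -0.81 ± 0.14 and -0.73 ± 0.15 (edgeR adjusted p = 0.0329, 0.0236 and 0.0368). In unassigned fragments Prkaa2 was at 36.6 ± 5.38 FPM (SD, n = 4) against 23.2 ± 1.51 (SD, n = 3), and Tdgf1 at 58.7 ± 1.61 against 84.8 ± 8.45. Mllt3, despite its share, was at 46.7 ± 6.18 against 53.1 ± 7.97 (log2 fold change -0.18 ± 0.14 SE, edgeR adjusted p = 0.585). The median absolute log2 fold change was 0.18 for the 188 genes and 0.13 for all selected genes tested. The count of 5 changed with every library left out, being 0 without iXist-ChrX-Dom replicates 2, 3 or 4 or iXist-ChrX-Cast replicates 1 or 2, 3 without iXist-ChrX-Dom replicate 1 and 22 without iXist-ChrX-Cast replicate 3.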

How the data were processed

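The authors filtered out ribosomal RNA with Bowtie2 2.3.2, aligned the rest with STAR 2.4.2a to mm10 with strain polymorphisms masked, split fragments by parental genome with SNPsplit and counted them over whole transcripts with featureCounts 1.5.2. The deposited files hold, per the file headers, raw fragment counts per gene for all, Cast and Dom fragments, counted by strand. Fragments that overlap several genes on a strand were left out, which lowers genes inside others. Unassigned fragments are all minus Cast minus Dom. The authors' tables of allelic ratios were not used.

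Cast and Dom counts of the 7 libraries were fitted over 9197 genes with edgeR 4.0.16 in R 4.3.3 (a term per library, allele, and allele by line, quasi-likelihood, two-sided, Benjamini-Hochberg adjusted p under 0.05), and unassigned fragments with filterByExpr and TMM. DESeq2 1.42.0 and limma 3.58.1 were alternatives. Log2 levels used a pseudocount of 0.5. The fits were tested on simulated data with changed genes placed at random among all genes tested. The simulation did not check error rates among the selected genes alone. Every pair of replicates differed beyond sampling noise (chi-square per gene 8.60 to 59.8).

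Genes were named by rule: among called genes whose lines did not overlap, the 12 largest rises and 12 largest falls; any monoallelic gene specific to a line; called genes of the listed groups, and for a group with none its 2 largest differences. Some genes the rule names are not reported here. Other names are said to be chosen after their values were seen. The selected genes, lists and tests were chosen with earlier results of these data known. Alternatives covered scaling, depth limits, tests, sample set, replicate block, gene overlaps and left-out libraries.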

Additional observations from a re-analysis of the deposited data

Results flagged for a closer look

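In the 4 iXist-ChrX-Dom libraries, 49 values were examined for a single library far from the other 3, and chance marks about 1 in 20 such groups. The Cast share of Dynlt1f was 67.8% in iXist-ChrX-Dom replicate 1, above 58.1% to 59.4% in the other 3. The Cast share of Tmem238 was 45.6% in iXist-ChrX-Dom replicate 2, below 49.5% to 50.0% in the other 3.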

How the results depend on the processing

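The 188 calls became 54 with DESeq2, 37 with the fit limited to the 13 autosomes, 32 with a difference of at least 10 points and 3 with at least 20, and ranged from 95 (without iXist-ChrX-Cast replicate 1) to 220 (without iXist-ChrX-Cast replicate 3) with a library left out. With the replicate block the count was 211, with 157 genes shared. Same-numbered libraries correlated at 0.0537, 0.0416 and 0.0687 in their deviations, so the numbers were not taken as pairs. The highest of the 12 correlations was 0.159 (iXist-ChrX-Dom replicate 4 with iXist-ChrX-Cast replicate 3), and all were positive within a sample set and negative across sets. With the sample set as a covariate the count was 270. The difference of the median share turned to -0.096 points within replicates 3 and 4, and ranged from 0.0982 to 0.378 with a library left out. Monoallelic genes specific to a line numbered 0 to 1 with a library left out and 0 under the other alternatives. Of 29 named genes called, 15 were called with DESeq2 and 19 to 27 with a library left out (19 without iXist-ChrX-Cast replicate 2). Called under all 13 alternatives run on single genes were 12: Mllt3, Abcg2, Prkaa2, Ppp4r1l-ps, Fbn2, Ifnar1, Aass, Sfmbt2, Zfp26, Cntln, Brinp1 and Arhgef28. None of the 34 named genes changed direction. The 5 genes also called in unassigned fragments became 17 with DESeq2, 29 with the replicate block, 40 with the sample set as a covariate, 3 with the Cast share fit limited to the 13 autosomes, and 0 to 22 with a library left out. The chromosome 6 block, and the limit to the 13 autosomes for the calls in unassigned fragments, were chosen after seeing the data. The cause of these changes was not tested. Shares from 50 fragments are imprecise, so small differences of shallow genes were not detectable.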
